A study of Homo sapiens with 35 samples.

Results

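The p53 target and stress genes are 31 genes of the p53 pathway, taken by symbol as rows of the deposited gene count table, where all 31 were found among 58581 genes. By their known roles, 4 feed back on p53, 5 slow or arrest the cell cycle, 13 act in cell death, 4 serve DNA repair and nucleotide supply, and 5 are stress, mitochondrial or secreted factors. Poly(A) RNA of the human embryonic stem cell line H9 was sequenced in 35 libraries. The cells grew on Matrigel in E8, the medium that keeps them pluripotent, and were then plated as single cells and collected at time zero (t0) or every 6 h up to 48 h in 1 of 3 media. These were E8, E6, in which cells differentiate spontaneously and which served as a second control, and E6 plus BMP4 and Activin A at 40 ng/mL (BA), which directs the cells to mesendoderm, the shared precursor of mesoderm and endoderm. The groups t0, BA 24 h, BA 48 h, E6 48 h and E8 48 h had 3 libraries each, and the other 20 combinations of medium and time had 1 library each. No allele, transgene or DNA-damaging agent is named for any group, so every group shares the same line, the same maintenance and the same single-cell plating. The labels do not say whether replicates came from separate cultures; if they did not, p-values measure only the spread between these samples, which may be technical.

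The transcription factor p53 is kept low by its target MDM2, an E3 ubiquitin ligase, and is stabilised by DNA damage and other stress. It then binds response elements, each a pair of decamers, near genes that halt the cell cycle, start apoptosis, repair DNA or adjust metabolism. Human embryonic stem cells have a short G1 phase, are quick to undergo apoptosis, and lose cells to stress when plated singly. Several of these genes also respond to other inputs: GADD45B, for example, is a known target of TGF-beta family signalling and of NF-kB.

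The promoters of members are shown for the response element that places a gene under p53, and, for GADD45B, because its level separated BA from both other media most clearly. RefSeq windows (GRCh38.p14) from 250 bases before to 50 after a transcription start were found for 25 of the 31 members. No window was matched for GADD45A, TNFRSF10A, TNFRSF10B, PHLDA3, TP53INP1 and RRM2B. A p53 response element, searched on both strands with at most 2 mismatches and a spacer of at most 13 bases, was present for 3 of 25 members (12%) and for 495 of 27305 genes (1.81%). The 3 members were DDB2, AEN and FAS. Some genes had several windows: 8 of the 25 members did, among them FAS with 3 and DDB2 with 2, and all genes together had 35116. The shares are per gene and make no allowance for this. Capitals below mark the response element in these 3 and the TATAAA motif in GADD45B, and each sequence is the plus strand from 130 bases before to 26 bases after the start.
DDB2 (chr11:47214844-47214999): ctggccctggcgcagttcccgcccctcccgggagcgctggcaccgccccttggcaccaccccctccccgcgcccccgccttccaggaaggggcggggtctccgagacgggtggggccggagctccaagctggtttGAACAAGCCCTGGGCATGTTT
AEN (chr15:88621210-88621365): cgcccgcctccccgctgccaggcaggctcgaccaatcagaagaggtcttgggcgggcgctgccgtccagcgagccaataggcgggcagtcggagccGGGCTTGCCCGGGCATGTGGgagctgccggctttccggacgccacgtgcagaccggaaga
FAS (chr10:88991301-88991456): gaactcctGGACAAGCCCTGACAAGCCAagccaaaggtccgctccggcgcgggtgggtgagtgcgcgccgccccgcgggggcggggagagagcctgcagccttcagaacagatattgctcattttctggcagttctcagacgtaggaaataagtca
GADD45B (chr19:2475997-2476152): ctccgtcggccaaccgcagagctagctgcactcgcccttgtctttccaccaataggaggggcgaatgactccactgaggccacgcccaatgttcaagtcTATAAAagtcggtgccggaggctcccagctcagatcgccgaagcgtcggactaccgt

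In DDB2 the element matched with 0 mismatches and a spacer of 1 base, beginning 6 bases after the start of the window shown. In AEN and FAS the 2 decamers were adjacent with 2 mismatches, at -34 to -15 in AEN and at -122 to -103 in FAS. A single decamer without mismatch was found in 5 of 25 members (20%), which also included SESN1 and FDXR, and in 8.06% of all genes. TATAAA, searched on both strands, was found in 2 of 25 members (8%), GADD45B and GDF15, and in 14% of all genes. A match describes the letters and is not a measured binding site or a cause, and the letters of this window say nothing of elements farther away, such as the well-known ones upstream of CDKN1A.

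The 35 libraries formed 2 sets, and this touches every comparison of the replicated groups. On 646 genes that differed between t0 replicate 1 and t0 replicates 2 and 3, a position of 0 (t0 replicate 1) to 1 (t0 replicates 2 and 3) put the 25 libraries numbered 1 or unnumbered at -0.0102 to 0.048, except E6 18 h at 0.33 and E8 24 h at 0.207. The 10 libraries numbered 2 or 3 stood at 0.944 to 1. Total counts ran from 11793453 to 37191969 per library, and the mitochondrial share of counts was 1.35 to 2.51% in the first set and 2.38 to 5.51% in the second. The pluripotency gene POU5F1 was at 291 to 3280 CPM (counts scaled to library size with TMM factors) in all 35 libraries. Of the other pluripotency markers, SOX2 ran from 3.51 to 404 CPM and NANOG from 7.98 to 109 CPM. DPPA4 ran from 209 to 973 CPM, LIN28A from 638 to 2260 and L1TD1 from 264 to 1460. CGA (trophoblast) was at 0 in all 35, and PTPRC (blood) and DCN (fibroblast) stayed at or below 0.202 and 0.379 CPM. Other markers of the trophoblast, blood and fibroblast lists were higher. COL1A1 and THY1, listed under fibroblast, were at 26.9 to 245 and 44.4 to 629 CPM, and KDR, listed under endothelium, at 45.8 to 437 CPM. COL1A1 was highest in E6 48 h replicate 3, THY1 in t0 replicate 2 and KDR in BA 42 h. Which cells expressed them was not tested. GATA3 (amnion and trophoblast) reached 193 CPM, in BA 24 h replicate 1. Of the 31 members, 11 were higher in replicates 2 and 3 than in replicate 1 in all 5 replicated groups, among them BAX, BBC3, DDB2, FDXR and GDF15, and 4 were lower in all 5, MDM2, PPM1D, CCNG1 and TP53INP1. Of the 21554 genes tested in these groups, 35.7% were higher and 24.4% lower in all 5. What separates the sets is not named in the labels, and its part in these levels was not tested.

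**Figure D1:**
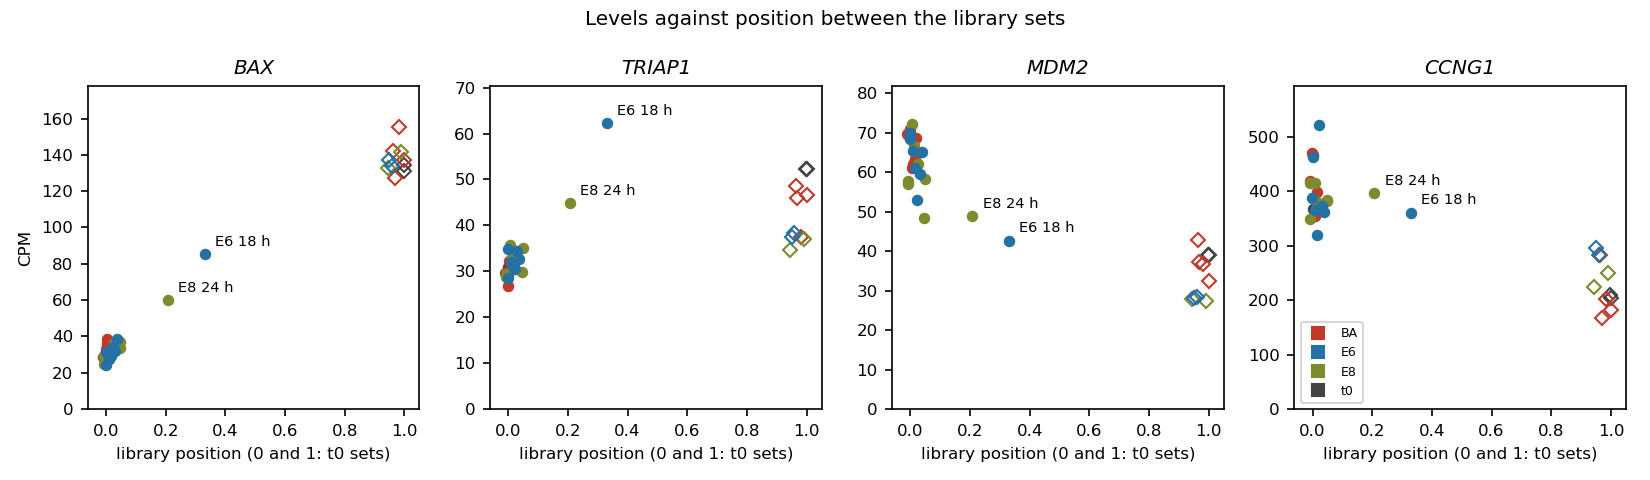
CPM of BAX, TRIAP1, MDM2 and CCNG1 (vertical axes) in each of the 35 libraries against the library's position between the 2 sets (horizontal axis), coloured by medium. BAX stands at 127.5 to 155.2 CPM in the second set, at 24.4 to 38.8 CPM in the first, and between them in E6 18 h (85.4 CPM) and E8 24 h (59.97 CPM).

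BAX, the pore-forming effector of mitochondrial apoptosis, showed the library sets most plainly. Its level was 29.3 CPM in t0 replicate 1 and 131.1 and 134.3 CPM in replicates 2 and 3. At 48 h in BA it was 33.1, 155.2 and 142 CPM. The sets did not overlap, while t0 and BA 48 h differed little within each. The time course below uses replicate 1 or the single library of each time, so that each time has equal weight. These are the libraries of the first set, and they include E6 18 h and E8 24 h. Because of the sets, the replicated groups are given replicate by replicate.

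Per kilobase of exon, the scale on which genes can be compared, the members spanned over 2 orders of magnitude. The cyclin CCNG1, which recruits a phosphatase to MDM2, had the highest median over the 35 libraries, 118 CPM per kb. PMAIP1 (NOXA), a BH3-only protein that primes mitochondria for apoptosis, followed with 69.5 CPM per kb, and the death receptor gene TNFRSF10B with 27.4 CPM per kb. At the other end stood the stress cytokine GDF15 (0.505 CPM per kb), the mitophagy factor SPATA18 (0.395 CPM per kb) and the death receptor gene FAS (0.327 CPM per kb). CDKN1A, which encodes the cyclin-dependent kinase inhibitor p21, had a median of 1.99 CPM per kb, and MDM2 one of 4.48 CPM per kb. The strand of counting is not stated, so genes that share exonic bases with a neighbour may hold its reads; the shared part was 39% of exonic bases for XPC, 19.1% for PHLDA3, 16.6% for TNFRSF10A, 10.2% for MDM2 and 8.93% for FAS.

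**Figure D2:**
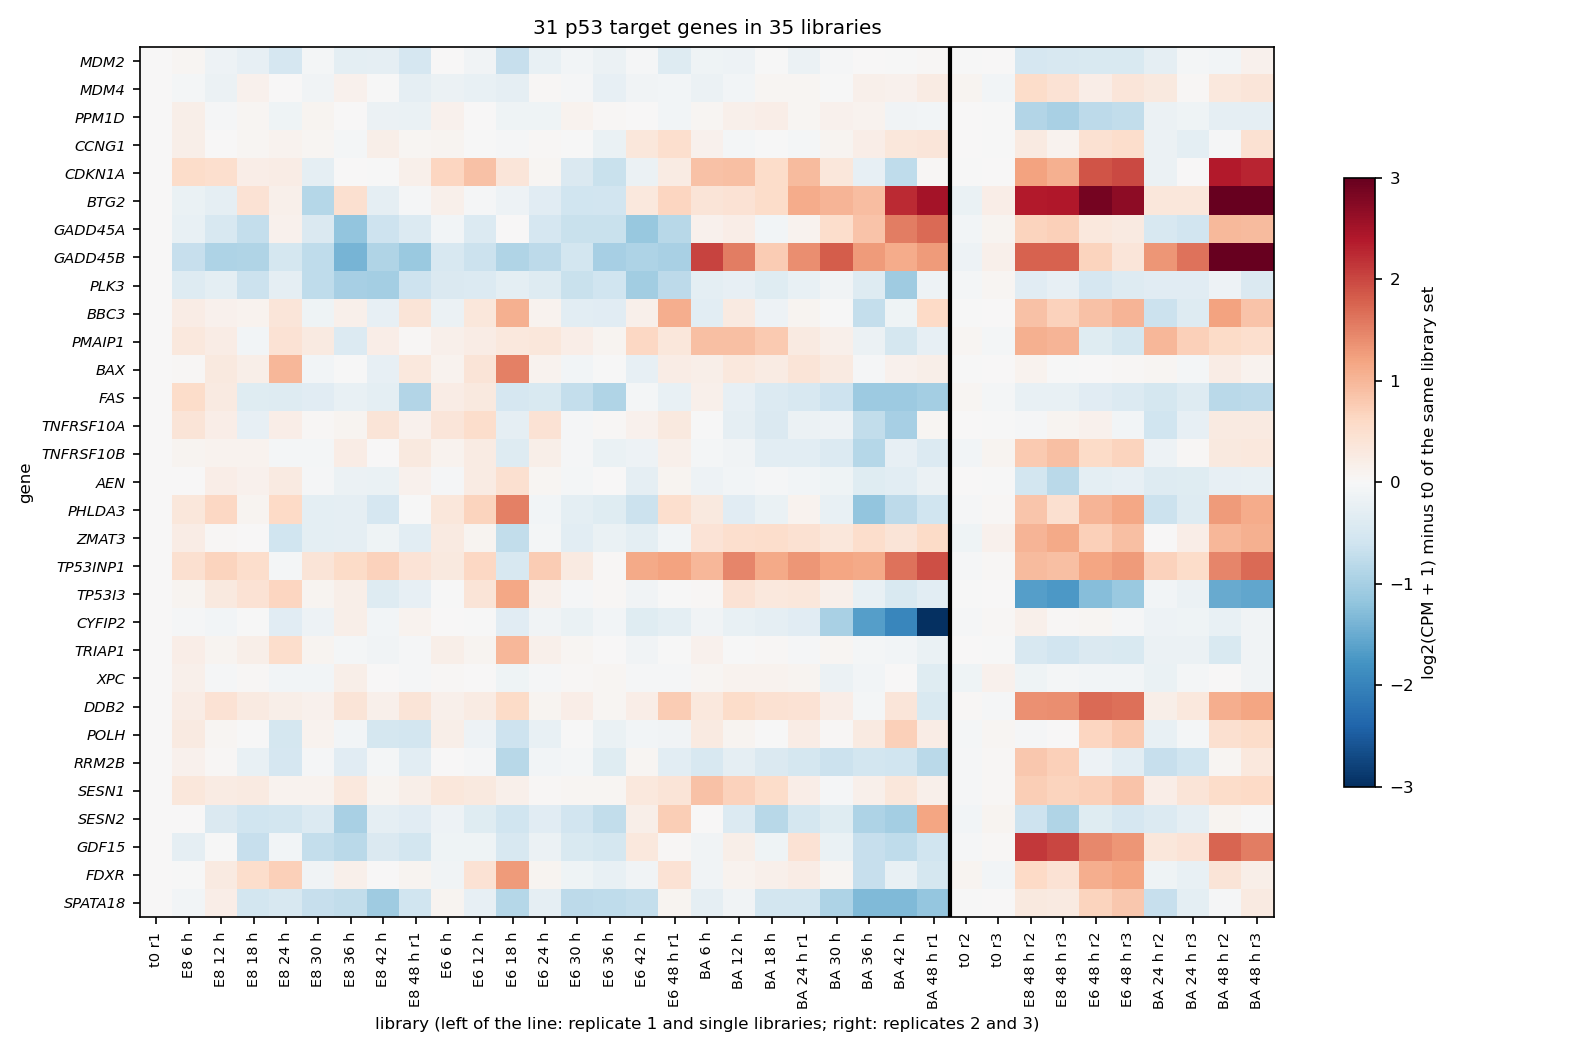
Each of the 31 members (rows) in each of the 35 libraries (columns), as log2(CPM + 1) minus the t0 level of the same library set (colour). Left of the line, GADD45B, BTG2 and GADD45A stand above t0 in BA and CYFIP2 falls below it late in BA; right of it, CDKN1A, BTG2, DDB2 and GDF15 are above t0 at 48 h in all 3 media.

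Which members separate cells in BA from cells in the control media was asked over the 8 times from 6 to 48 h, with 1 library per medium and time (24 libraries). Against E6, 12 of 31 members passed an adjusted p of 0.05 (edgeR quasi-likelihood test with time as a factor), 7 higher and 5 lower in BA, where 30.9% of the 16971 genes tested were called (16.5% higher, 14.3% lower). Against E8 it was also 12, 7 higher and 5 lower, at a background of 31% (16.3% higher, 14.6% lower). Without the E6 18 h and E8 24 h libraries the members called were 12 and 11, at backgrounds of 35% and 36.6%. With replicates 2 and 3 of the 3 media added they were 5 against E6 (4 higher, 1 lower) and 7 against E8 (4 higher, 3 lower), at backgrounds of 19.4% and 20.6%. The 2 comparisons share the BA libraries. The members' median log2 difference was -0.02 against E6 and 0.07 against E8, beside 0 over all genes in both. The 12 are 38.7% of the members, near the background. By role, as a description with no test of a difference between roles, the growth-arrest genes held 3 higher and 0 lower of 5 against E6 and 4 higher and 0 lower of 5 against E8, with medians of 1.34 and 1.32; the 13 cell death genes held 2 higher and 4 lower in both, with medians of -0.21 and -0.19. Between E6 and E8 no member was called by edgeR, none had an unadjusted p under 0.05, and DESeq2 called 0; the background was 0%, with 216 of all genes at an unadjusted p under 0.05.

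Among the growth-arrest genes, GADD45B, a stress sensor that binds MAP kinase kinases and cyclin B1 complexes (chr19:2476122-2478259 in GENCODE release 29, a protein-coding gene), differed most. In BA its level was 5.38 CPM at its lowest, 8.53 at the median and 14.4 at its highest. In E6 the same values were 0.9, 1.1 and 1.72 CPM, and in E8 they were 0.445, 1.02 and 1.63 CPM. Among these libraries no BA library overlapped any library of the other media, and BA was higher already at 6 h (14.4 CPM). The average log2 difference was 2.95 ± 0.15 SE against E6 (7.72-fold, adjusted p = 2.38e-10) and 3.16 ± 0.16 against E8 (8.93-fold, adjusted p = 1.81e-10).

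BTG2, an antiproliferative partner of the CCR4-NOT deadenylase (chr1:203305491-203309602), was at 4.37, 4.5 and 4.96 CPM in BA at 6, 12 and 18 h and at 18.5 and 22.1 CPM at 42 and 48 h. E6 spanned 1.7 to 5.39 CPM with a median of 2.82, and E8 1.26 to 4.7 CPM with a median of 2.81. BA was above both at all 8 times, though the early BA values lay within the range of the other media over all times. The average log2 difference was 1.56 ± 0.31 against E6 (adjusted p = 0.000778) and 1.49 ± 0.31 against E8 (adjusted p = 0.00128).

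GADD45A, the paralogue of GADD45B (chr1:67685061-67688338), was at 11.1 CPM in BA at 6 h, 10.8 at 24 h and 34.7 at 48 h. Its medians were 13.2 CPM in BA, 6.35 in E6 and 7 in E8. BA was above both media at 6 of 8 times, and its levels overlapped theirs. Its average log2 difference was 1.34 ± 0.3 against E6 (adjusted p = 0.00227) and 1.32 ± 0.3 against E8 (adjusted p = 0.00233).

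CDKN1A was not among the genes called. Its level in BA ran from 1.94 to 8.69 CPM (median 5.82), in E6 from 2.16 to 8.11 (median 4.58) and in E8 from 3.13 to 6.3 (median 4.6). These ranges overlapped throughout, and the average log2 difference was 0.31 ± 0.19 against E6 (adjusted p = 0.231) and 0.24 against E8 (adjusted p = 0.376). PLK3, a stress-responsive polo-like kinase, passed the test against E8 (0.32 ± 0.11, adjusted p = 0.0311), and its call was lost in 4 of the 8 fits that left out 1 time, those without 24, 30, 36 or 48 h.

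Among the cell death genes, TP53INP1 and ZMAT3 were higher in BA at all 8 times against both media. TP53INP1, a cofactor of p53 that also acts in autophagy, had medians of 37.9 CPM in BA (31.7 to 60.7), 21.5 in E6 (10.7 to 36.7) and 22.1 in E8 (14.6 to 25.1). ZMAT3, an RNA-binding zinc finger protein, had medians of 18.6 CPM in BA (16.7 to 19.99), 11.8 in E6 (7.33 to 16) and 11.2 in E8 (8.29 to 15.4). Among these libraries ZMAT3 did not overlap between BA and either medium. In replicates 2 and 3 at 48 h it was at 14.6 and 15.3 CPM in BA and 14.9 and 16.1 CPM in E8. The log2 differences against E6 were 0.89 ± 0.17 for TP53INP1 (adjusted p = 0.000516) and 0.69 ± 0.13 for ZMAT3 (adjusted p = 0.000432), and those against E8 0.91 and 0.69.

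Both TRAIL receptor genes were lower in BA, and the third death receptor gene, FAS, was not called (-0.56 against E6, adjusted p = 0.154, and -0.73 against E8, adjusted p = 0.061). TNFRSF10A, which encodes the TRAIL receptor DR4, had medians of 4.98 CPM in BA (2.55 to 6.32), 7.1 in E6 (4.8 to 9.18) and 6.88 in E8 (4.94 to 8.25), and BA was below both at all 8 times. Its log2 difference was -0.57 ± 0.15 against E6 (adjusted p = 0.00721) and -0.54 ± 0.15 against E8 (adjusted p = 0.00946). In replicates 2 and 3 at 48 h the mean was higher in BA (12.2 CPM) than in E6 (10.1) and E8 (10.2). TNFRSF10B, which encodes the receptor DR5, was at 74.2 to 129.3 CPM in BA, 101.9 to 160.3 in E6 and 129.2 to 163.5 in E8. It was below both at 7 times, by -0.3 ± 0.1 against E6 (adjusted p = 0.0273, lost without 12, 30 or 48 h) and -0.41 ± 0.1 against E8 (adjusted p = 0.00398). AEN, an apoptosis-enhancing nuclease with the promoter element shown above, was below both at all 8 times by -0.21 ± 0.06 against E6 (adjusted p = 0.00863) and -0.19 ± 0.06 against E8 (adjusted p = 0.017, lost without 12 or 48 h). With replicates 2 and 3 added, the AEN differences were -0.14 (adjusted p = 0.316) and -0.03 (adjusted p = 0.868). In those replicates at 48 h the AEN mean was 167 CPM in BA, 164 in E6 and 123 in E8.

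PHLDA3, a repressor of AKT signalling, and CYFIP2, a subunit of the WAVE actin regulator that p53 can induce, each passed in 1 comparison. PHLDA3 had medians of 2.88 CPM in BA (1.09 to 4.8), 4.21 in E6 (2 to 12.5) and 3.83 in E8 (2.33 to 6.27). Its difference from E6 was -0.72 ± 0.24 (adjusted p = 0.0318), and it was -0.49 with an adjusted p of 0.08 without the 2 libraries that stood between the sets. CYFIP2 differed by -0.89 ± 0.28 from E8 (adjusted p = 0.0222, lost without 30, 36 or 42 h) and by -0.73 ± 0.28 from E6 (adjusted p = 0.0541).

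In the repair group, POLH, the translesion polymerase eta, was higher in BA, by 0.45 ± 0.15 against E6 (adjusted p = 0.0274) and 0.43 ± 0.15 against E8 (adjusted p = 0.0365). Both calls were lost without the E6 18 h and E8 24 h libraries (adjusted p = 0.0509 and 0.0535), and without 24, 36 or 42 h. RRM2B, the p53-induced small subunit of ribonucleotide reductase, was lower, by -0.32 ± 0.1 against E6 (adjusted p = 0.0222) and -0.37 ± 0.1 against E8 (adjusted p = 0.0103). Without E6 18 h and E8 24 h the first was -0.41 with an adjusted p of 7.92e-05. The RRM2B call against E6 was lost without 6, 30, 42 or 48 h. With all libraries RRM2B differed by -0.33 from E6 (adjusted p = 0.134) and -0.53 from E8 (adjusted p = 0.0112). POLH then differed by 0.22 from E6 (adjusted p = 0.371) and 0.39 from E8 (adjusted p = 0.0745). In replicates 2 and 3 at 48 h the RRM2B mean was 55.9 CPM in BA, 41.5 in E6 and 83.4 in E8. The POLH mean was 11.5 CPM in BA, 13.3 in E6 and 7.66 in E8. The damage sensors XPC and DDB2 were not called, and neither were any of the 5 stress, mitochondrial and secreted genes.

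Of the 4 feedback genes, MDM4, the p53-binding paralogue of MDM2, passed against E6 (0.21 ± 0.08, adjusted p = 0.045), a call lost in 7 of 8 fits that left out 1 time and without E6 18 h and E8 24 h (adjusted p = 0.0844). MDM2 ran from 61.1 to 71 CPM in BA, 42.7 to 69.8 in E6 and 48.5 to 72.1 in E8. PPM1D (WIP1), the phosphatase that switches p53 off, ran from 30.5 to 37.8 CPM in BA, 30.3 to 36.3 in E6 and 28.5 to 37.5 in E8, the narrowest range of any member over the 24 libraries. Of all 12 calls against E6, 7 held whichever time was left out (GADD45B, BTG2, GADD45A, TP53INP1, ZMAT3, TNFRSF10A and AEN), and against E8 8 held. The share of all genes that held was not counted, so these counts cannot be read as particular to the members. Each fit without 1 time called 4074 to 5567 of all genes tested against E6 and 4066 to 6034 against E8. These fits use the first library set only. With replicates 2 and 3 added, TP53INP1, TNFRSF10A and AEN lost the call against E6 (adjusted p = 0.102, 0.161 and 0.316). Against E8, ZMAT3 and TNFRSF10A of those 8 lost it (adjusted p = 0.0566 and 0.181). In bulk RNA, fewer cells expressing a gene and less RNA per cell cannot be told apart.

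**Figure D3:**
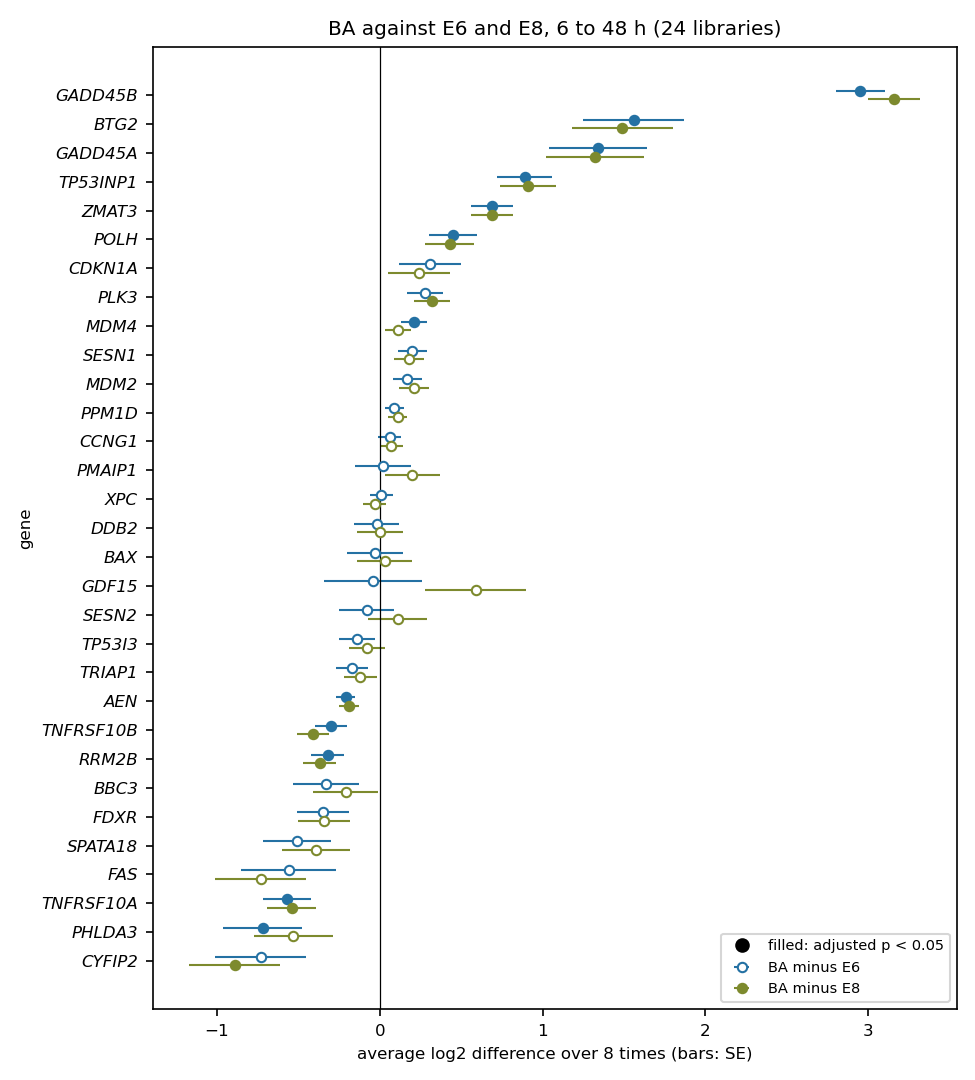
Average log2 difference of each member between BA and E6 and between BA and E8 over the 8 times (horizontal axis, bars SE), with filled points for an adjusted p under 0.05. GADD45B stands at 2.95 and 3.16, apart from BTG2 and GADD45A between 1.32 and 1.56, and most other members lie within 1 log2 unit of 0.

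Within BA some members changed with time. Between 6 to 24 h and 30 to 48 h (4 libraries each), 9 of 31 members were called in BA, 2 higher and 7 lower later, where 15.9% of all genes were called (8% higher, 7.9% lower). Without E6 18 h and E8 24 h, 11 members were called at a background of 22.4%. With all libraries, 3 were called (1 higher, 2 lower) at a background of 6.41%. The median log2 difference was -0.15 beside 0 over all genes, and 0.135 with all libraries. In E6 the same test called 0 members (8 at an unadjusted p under 0.05, DESeq2 0, background 0.00559%) and in E8 0 members (5 at an unadjusted p under 0.05, DESeq2 0, background 0%). These backgrounds are shares at the adjusted p. Of all 17897 genes, 1831 in E6 and 494 in E8 had an unadjusted p under 0.05. As the cells in BA moved on, the summed level of the 5 primitive streak markers T, EOMES, MIXL1, MESP1 and GSC went from 21 CPM at 6 h to 2730 CPM at 42 h, against 1.46 to 11.6 CPM in E6 and E8, and the summed 6 pluripotency markers from 3850 to 2310 CPM at 48 h. The part of this change of cell state in the members' levels was not tested.

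The change in BA differed from that in E6 for 3 members (background 4.6%) and from that in E8 for 2 (4.89%), and the 2 tests share the BA libraries. GADD45A and BTG2 were the 2 that rose. GADD45A averaged 10.7 CPM at 6 to 24 h and 24.7 CPM at 30 to 48 h in BA, without overlap, a log2 difference of 1.21 ± 0.24 (adjusted p = 0.00121). In E6 its averages were 8.32 and 5.25 CPM and in E8 7.96 and 6.09 CPM. The change in BA exceeded that in E6 by 1.86 ± 0.35 (adjusted p = 0.0033) and that in E8 by 1.58 ± 0.35 (adjusted p = 0.00986). BTG2 averaged 5.42 and 13.6 CPM in BA, a difference of 1.33 ± 0.41 (adjusted p = 0.0297). That call was lost without 6, 12, 18, 42 or 48 h, and the change did not pass the test against E6 (1.15, adjusted p = 0.328) or E8 (1.51, adjusted p = 0.173).

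CYFIP2 (chr5:157266079-157395595) fell stepwise in BA, with 151, 139, 135 and 128 CPM at 6 to 24 h and 82.3, 50.9, 41.2 and 19.3 CPM at 30 to 48 h. Over all times it stayed at 125.6 to 164.5 CPM in E6 and 127.8 to 185 CPM in E8. The BA values at 30 h and later were below every library of both other media. The log2 difference was -1.51 ± 0.24 (2.84-fold lower, adjusted p = 0.000149; -0.91, adjusted p = 0.0173, with all libraries), and it exceeded the change in E6 by -1.39 ± 0.34 (adjusted p = 0.0176) and that in E8 by -1.65 ± 0.34 (adjusted p = 0.00604).

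PMAIP1 was high at the start in BA, with 251, 251 and 233 CPM at 6, 12 and 18 h, and was at 93.3 and 113 CPM at 42 and 48 h. E6 ran from 142.7 to 208.3 CPM and E8 from 101.3 to 180.5 CPM. The first 3 BA libraries were above, and the last 3 below, every E6 library, so that the average over all times differed by 0.02 only. The difference was -0.91 ± 0.16 (adjusted p = 0.000487). With all libraries it was -0.76 (adjusted p = 0.0514). It exceeded the change in E6 by -1 ± 0.23 (adjusted p = 0.0138), and the difference from E8, -0.75, had an adjusted p of 0.0647.

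CDKN1A averaged 7.88 CPM at 6 to 24 h and 3.63 CPM at 30 to 48 h in BA, with no overlap, a fall of -1.11 ± 0.27 (adjusted p = 0.00593) in this set of libraries. With all libraries the difference was 1.13 (adjusted p = 0.521), and between 24 and 48 h in BA replicate 1 went to 0.471-fold and replicates 2 and 3 to 5.89-fold. The change in BA did not pass the test against that in E6 (-0.24, adjusted p = 0.794) or E8 (-0.64, adjusted p = 0.433). SPATA18 averaged 2.4 and 0.925 CPM (-1.36 ± 0.34, adjusted p = 0.00809). FAS averaged 1.39 and 0.453 CPM (-1.57 ± 0.49, adjusted p = 0.032), GDF15 1.38 and 0.51 CPM (-1.4 ± 0.42, adjusted p = 0.0241), and SESN1, a regulator of mTORC1 and oxidant defence, 32.2 and 23.5 CPM (-0.45 ± 0.14, adjusted p = 0.0279). GDF15 turned with the libraries too: with all of them the difference was 0.77 (adjusted p = 0.869), and from 24 to 48 h replicate 1 went to 0.228-fold and replicates 2 and 3 to 2.77-fold. FAS, GDF15 and SESN1 each lost the call in 5 of 8 fits that left out 1 time. Without 12 h or without 48 h, 5 members in all were called, where 1834 of 18167 and 1917 of 18005 genes were called.

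**Figure D4:**
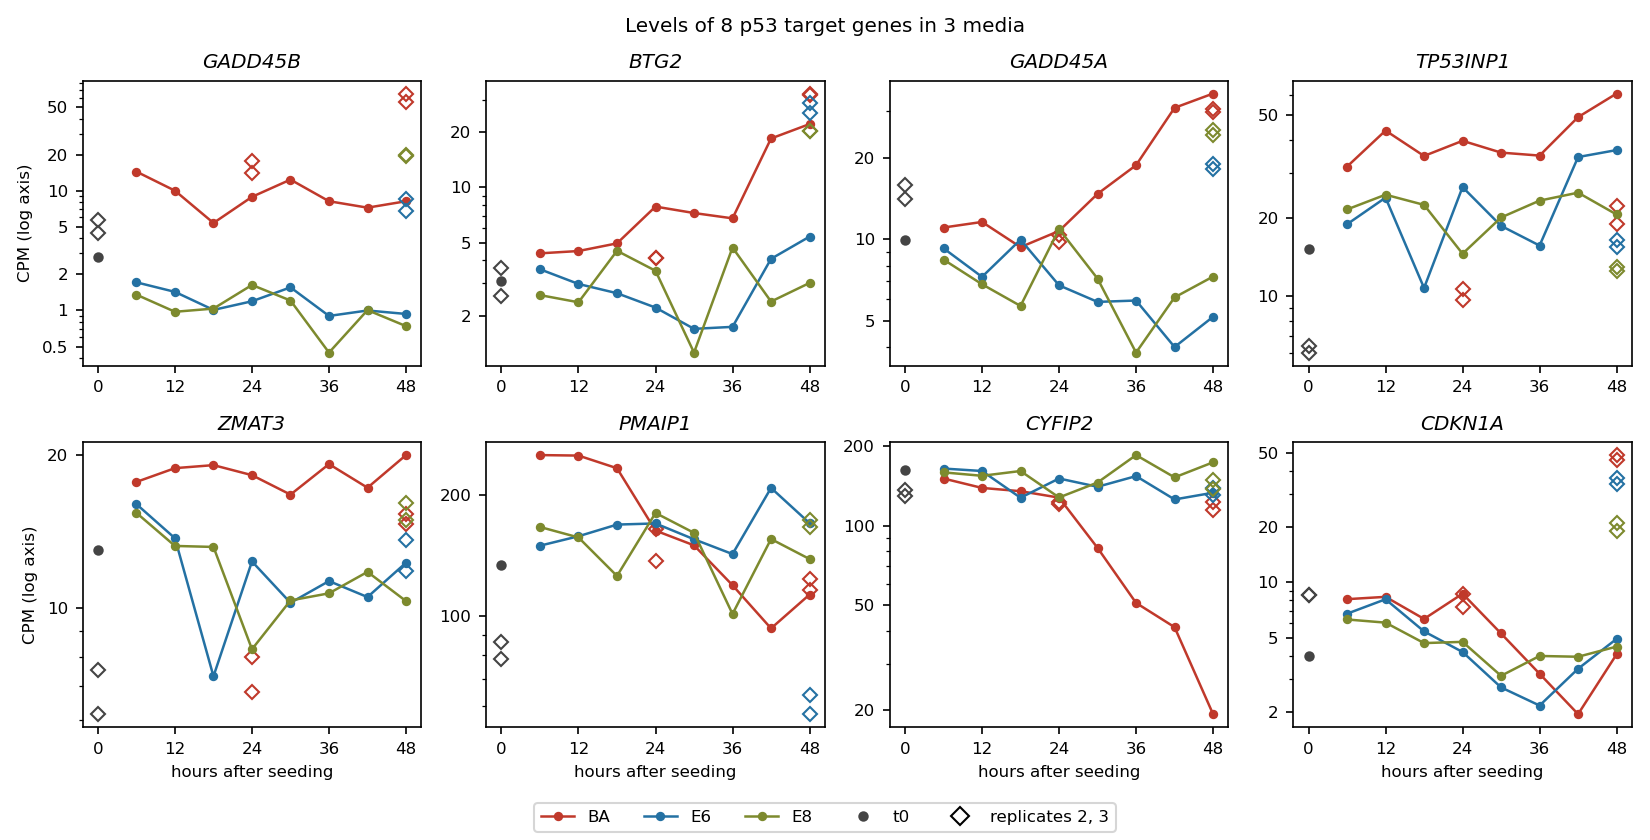
CPM (log axis) of 8 members against hours after seeding in BA, E6 and E8, with t0 at 0 h; lines join replicate 1 and unnumbered libraries, and open diamonds are replicates 2 and 3. The line of GADD45B in BA lies above those of both other media at every time. The lines in BA drop from 151 to 19.3 CPM for CYFIP2 and from 251 to 113 CPM for PMAIP1. The open diamonds of CDKN1A at 48 h stand above the line of the same medium.

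The replicated groups asked what 48 h in each medium did relative to t0, and how BA at 48 h differed from 24 h and from the other media. With all 3 replicates in 1 fit without a block, edgeR called 2 of 31 members for BA 48 h against t0 (background 6.37%), 1 for E6 48 h against t0 (3.88%), and 0 for E8 48 h against t0 (0.139%), BA 24 h against t0 (1.57%), BA 48 h against BA 24 h (0.455%), BA 48 h against E6 48 h (3.52%), BA 48 h against E8 48 h (2.44%) and E6 48 h against E8 48 h (0.144%). At an unadjusted p under 0.05, the comparisons with 0 held 4, 0, 5, 3, 2 and 1 members in that order, and DESeq2 called 3, 0, 3, 1, 1 and 0. Of all 21554 genes, 3226, 2021, 2212, 3348, 2931 and 1017 had an unadjusted p under 0.05. DESeq2 called 1310, 845, 672, 1603, 1299 and 226 of all genes. The 4 comparisons with t0 share the t0 libraries. The labels name no block, and whether same-numbered libraries belong together is not known. With the replicate number as a block the calls against t0 were 10 for BA 48 h (background 28.5%), 13 for E6 48 h (35%), 10 for E8 48 h (25.6%) and 1 for BA 24 h (8.95%). For BA 48 h they were 7 against BA 24 h (10%) and 5 each against E6 48 h (22.1%) and E8 48 h (17.6%). For E6 48 h against E8 48 h the block gave 0 (2.84%). Median log2 differences of the members were 0.31 for BA 48 h, 0.18 for E6 48 h and 0.25 for E8 48 h against t0, beside 0.02, -0.02 and -0.01 over all genes. Replicates 2 and 3 alone, which lie in 1 library set, called 21, 24 and 23 members in the same order, where 46.7%, 54.4% and 51.3% of all genes were called. In the other comparisons they called 13 for BA 24 h against t0 (background 20.7%), 22 for BA 48 h against BA 24 h (34.1%), 17 against E6 48 h (36.7%), 17 against E8 48 h (33.1%) and 15 for E6 48 h against E8 48 h (18.4%).

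At 48 h in BA, replicate 1 also differed from the other 2 in its markers. The streak markers summed to 1830 CPM in replicate 1 and to 114 and 115 CPM in replicates 2 and 3, and the pluripotency markers to 2310, 5280 and 4290 CPM. At 24 h in BA the streak sums were 933, 58.8 and 66.6 CPM. The part of this in the members' replicate differences was not tested.

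BTG2 was the member with the clearest rise from t0. It was at 3.09, 2.56 and 3.63 CPM at t0 (replicates 1, 2 and 3), at 7.86, 4.14 and 4.14 CPM at 24 h in BA and at 22.1, 32.4 and 31.7 CPM at 48 h in BA. The 48 h values were 5.39, 28.9 and 25.3 CPM in E6 and 3.02, 20.2 and 20.4 CPM in E8. In BA all 3 replicates at 48 h were above all of t0 and of 24 h, whereas in E8 replicate 1 was below t0 replicate 1. The log2 difference of BA 48 h from t0 was 3.27 ± 0.72 (9.65-fold, adjusted p = 0.02, lost when any t0 library was left out), and 3.25 with the block (adjusted p = 0.00455). For E6 it was 2.75 (adjusted p = 0.0516, 0.0117 with the block) and for E8 2.28 (adjusted p = 0.151, 0.0368 with the block). Between 24 and 48 h in BA it rose by 2.32 with the block (adjusted p = 0.0424).

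GADD45B was at 2.78, 4.43 and 5.72 CPM at t0, at 8.89, 14.1 and 17.7 CPM at 24 h in BA and at 8.17, 64.8 and 55.3 CPM at 48 h in BA. In E6 at 48 h it was at 0.935, 8.53 and 6.76 CPM, and in E8 at 0.74, 19.7 and 19.7 CPM. BA was above E6 and E8 within every replicate, and replicate 1 of E6 and of E8 was below t0 replicate 1 while replicates 2 and 3 were above theirs. The log2 difference of BA 48 h from t0 was 3.36 ± 1.08 (adjusted p = 0.0908, 0.00598 with the block), and from E6 48 h it was 2.94 with the block (adjusted p = 0.00666). In replicates 2 and 3 alone, E6 was lower than E8 by -1.35 (adjusted p = 0.000193).

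GADD45A was at 9.96, 14.1 and 15.9 CPM at t0, at 10.8, 10.4 and 9.77 CPM at 24 h in BA, and at 34.7, 30.3 and 29.7 CPM at 48 h in BA. In E6 it was at 5.17, 19 and 18.3 CPM and in E8 at 7.29, 24.3 and 25.4 CPM. The BA 48 h libraries were above all others of these groups. With the block it was higher at 48 h in BA than at 24 h by 1.67 (adjusted p = 0.0304), than at t0 by 1.39 (adjusted p = 0.0272) and than in E6 by 1.32 (adjusted p = 0.0429).

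CDKN1A, added to the genes given in full after its values were seen, was at 3.98, 8.49 and 8.57 CPM at t0 and at 8.69, 7.41 and 8.62 CPM at 24 h in BA. At 48 h it was at 4.09, 48.7 and 45.7 CPM in BA, 4.95, 34.1 and 36.7 CPM in E6, and 4.5, 21 and 19 CPM in E8. Replicate 1 stayed near its t0 level in all media, within 1.03- to 1.24-fold, and replicates 2 and 3 were 5.53-, 4.15- and 2.34-fold above theirs. Over all 3 replicates the log2 difference of BA 48 h from t0 was 2.28 ± 0.88 (adjusted p = 0.161). With the block it was 1.95 (adjusted p = 0.0303), and in replicates 2 and 3 alone 2.53 (adjusted p = 3.52e-08).

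**Figure D5:**
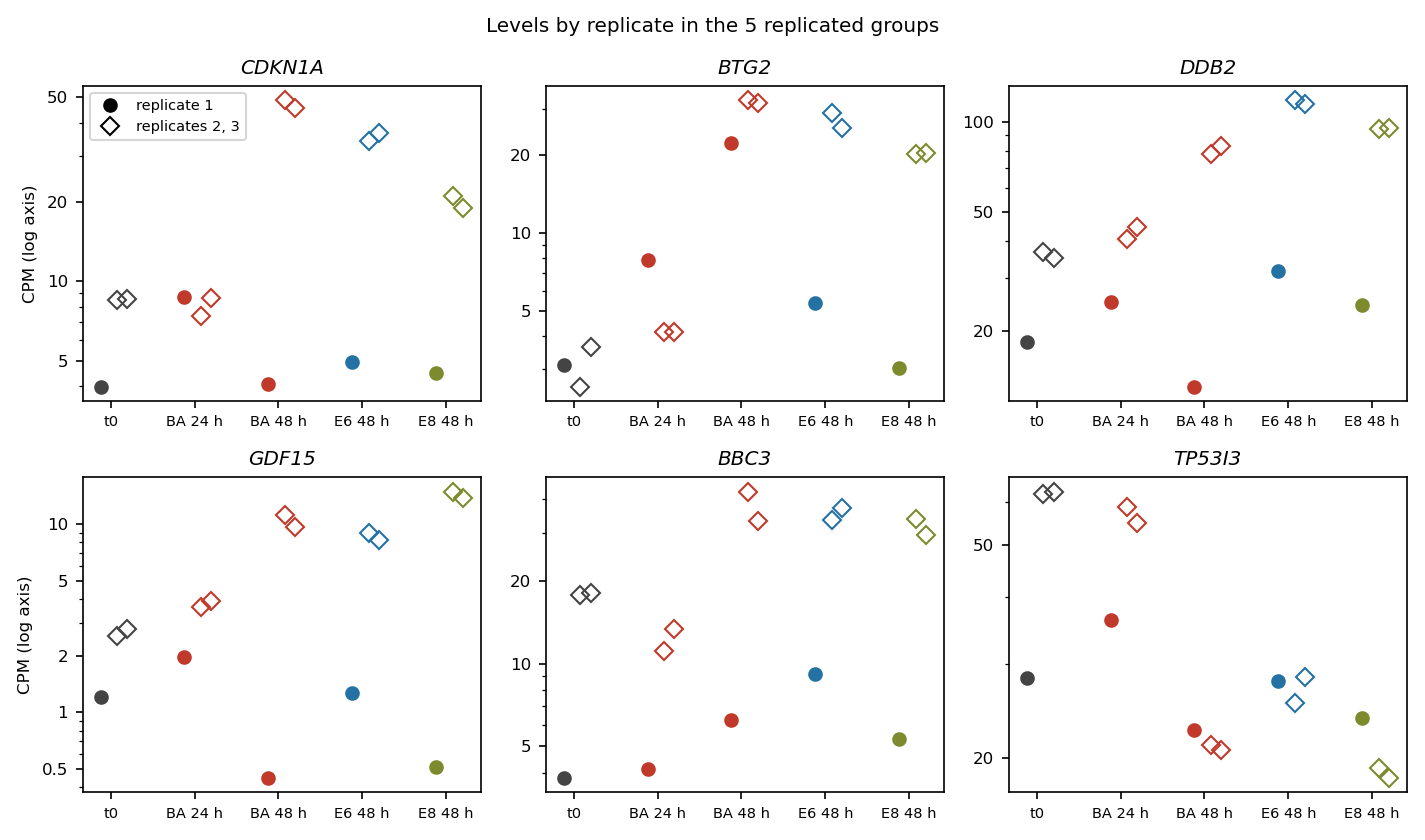
CPM (log axis) of CDKN1A, BTG2, DDB2, GDF15, BBC3 and TP53I3 in the 3 libraries of each replicated group, with replicate 1 filled and replicates 2 and 3 open. CDKN1A at 48 h is at 4.09 to 4.95 CPM in replicate 1 and at 19 to 48.7 CPM in replicates 2 and 3, and TP53I3 at 48 h in BA is near 21 CPM in all 3.

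Among the cell death genes, TP53I3 (PIG3), an oxidoreductase linked to reactive oxygen, fell. It was at 28.2, 62.1 and 62.8 CPM at t0, 36.2, 58.7 and 54.9 CPM at 24 h in BA and 22.6, 21.2 and 20.7 CPM at 48 h in BA. The other media at 48 h had 27.9, 25.3 and 28.3 CPM in E6 and 23.8, 19.2 and 18.4 CPM in E8. The BA 48 h and E8 48 h libraries were all below every t0 library. The log2 difference of BA 48 h from t0 was -1.16 ± 0.26 (adjusted p = 0.0215, lost without t0 replicate 2 or 3 or BA 48 h replicate 2 or 3), and -1.14 with the block (adjusted p = 0.00497). For E8 it was -1.26 (adjusted p = 0.0829, 0.0053 with the block) and for E6 -0.84 (adjusted p = 0.0916, 0.0196 with the block).

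BBC3 (PUMA), a BH3-only activator of apoptosis, was at 3.83, 17.8 and 18.1 CPM at t0, 4.14, 11.1 and 13.4 CPM at 24 h in BA, and 6.26, 42.5 and 33.2 CPM at 48 h in BA. In the other media at 48 h it was at 9.19, 33.6 and 37.1 CPM in E6 and 5.3, 33.8 and 29.4 CPM in E8. Every 48 h library was above the t0 library of its number, and replicate 1 was below all others. With the block, BBC3 was higher than at t0 by 1.04 in BA (adjusted p = 0.00371), 1.13 in E6 (adjusted p = 0.00228) and 0.77 in E8 (adjusted p = 0.019). It was higher at 48 h than at 24 h in BA by 1.34 (adjusted p = 0.00379).

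TP53INP1 was at 15.3, 6.04 and 6.4 CPM at t0, 39.9, 10.7 and 9.64 CPM at 24 h in BA and 60.7, 19 and 22.3 CPM at 48 h in BA. At 48 h it was at 36.7, 15.4 and 16.5 CPM in E6 and 20.7, 12.9 and 12.5 CPM in E8. Replicate 1 was the highest in each group, and in every replicate the order at 48 h was BA, E6, E8, t0. With the block the log2 difference from t0 was 1.88 in BA (adjusted p = 0.000222), 1.38 in E6 (adjusted p = 0.00129) and 0.91 in E8 (adjusted p = 0.0143), and BA was above E8 by 0.97 (adjusted p = 0.0116). It was also the member called at 24 h in BA against t0 with the block.

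FAS was at 1.78, 3.41 and 3.03 CPM at t0 and 0.982, 1.95 and 2.23 CPM at 24 h in BA. At 48 h it was at 0.383, 1.39 and 1.43 CPM in BA, 1.38, 2.34 and 2.16 CPM in E6 and 0.513, 2.59 and 2.63 CPM in E8. BA 48 h was the lowest group within every replicate. With the block it was lower than t0 by -1.36 (adjusted p = 0.007) and than E6 by -0.94 (adjusted p = 0.0476).

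The TRAIL receptor genes changed less. TNFRSF10A was at 6.03, 10.1 and 9.8 CPM at t0, 5.17, 6.21 and 8.24 at 24 h and 6.32, 12.3 and 12.2 at 48 h in BA, 7.54, 10.9 and 9.31 in E6 and 6.72, 9.78 and 10.53 in E8. It was higher at 48 h than at 24 h in BA by 0.64 with the block (adjusted p = 0.0236). TNFRSF10B was at 134.3, 141.5 and 159.8 CPM at t0, 108, 134.3 and 153.5 at 24 h and 101, 184.6 and 187.8 at 48 h in BA, 150.3, 223.5 and 238.7 in E6 and 163.5, 259 and 282.5 in E8. Within every replicate E8 was the highest of these groups. With the block it was higher than t0 by 0.69 in E8 (adjusted p = 0.00751) and 0.5 in E6 (adjusted p = 0.0203), and BA was below E8 by -0.57 (adjusted p = 0.0205).

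PHLDA3 was at 3.72, 14.1 and 15 CPM at t0, 4.08, 8.88 and 10.9 at 24 h and 2.11, 36.6 and 32.8 at 48 h in BA, 5.72, 30.4 and 33.5 in E6 and 3.7, 26.7 and 20.9 in E8. Replicate 1 of BA 48 h was below its t0 library while replicates 2 and 3 were above theirs. CYFIP2 at 48 h in BA was at 19.3, 114.4 and 123.1 CPM, and in the other groups at 120.2 to 173.7 CPM. The low level was thus in replicate 1 only, the library that ends the time course above, and neither gene was called in these comparisons with all 3 replicates. TRIAP1, a small protein that inhibits apoptosome formation, was at 30.9, 52.4 and 52.2 CPM at t0 and 29.9, 37 and 34.7 CPM at 48 h in E8, lower by -0.34 with the block (adjusted p = 0.0432). In its other groups it ran from 26.8 to 48.6 CPM.

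In the repair group, DDB2, the DNA damage-binding protein whose promoter holds the exact response element, was at 18.3, 36.6 and 35 CPM at t0 and 25, 40.6 and 44.5 CPM at 24 h in BA. At 48 h it was at 13, 77.7 and 83 CPM in BA, 31.7, 117.7 and 114.1 CPM in E6 and 24.3, 94.5 and 95.4 CPM in E8. E6 was the highest within every replicate, and in BA replicate 1 was below its t0 library while replicates 2 and 3 were above theirs. With the block it was higher than t0 by 1.43 in E6 (adjusted p = 0.00606) and 1.11 in E8 (adjusted p = 0.0264). In replicates 2 and 3 alone BA was below E6 by -0.58 (adjusted p = 0.00013). XPC, POLH and RRM2B were not called in these comparisons with or without the block, and ran over all 35 libraries from 47.5 to 74.8, 5.88 to 16.3 and 30 to 103.9 CPM.

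Of the stress, mitochondrial and secreted genes, SESN1 was the one called in E6 against t0 without a block. It was at 21, 16.4 and 17.3 CPM at t0, 24, 19.6 and 22.4 at 24 h and 23.6, 25.2 and 26.2 at 48 h in BA, 27.9, 28.4 and 31.4 in E6 and 24, 28.8 and 27.5 in E8. All 9 libraries at 48 h were above all 3 at t0. The log2 difference of E6 48 h from t0 was 0.73 ± 0.17 (adjusted p = 0.0421, lost in 5 of 6 fits that left out 1 library, and 0.00332 with the block). With the block it was also called for BA 48 h (0.52, adjusted p = 0.0205) and E8 48 h (0.6, adjusted p = 0.013).

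FDXR, the ferredoxin reductase of mitochondrial steroid and iron-sulphur metabolism, was at 8.02, 21.7 and 19.2 CPM at t0, 9.56, 18.6 and 17.3 at 24 h and 5.3, 27 and 23.1 at 48 h in BA, 11.2, 44.5 and 47.7 in E6 and 8.54, 31.5 and 27.8 in E8. E6 was the highest within every replicate. With the block E6 was above t0 by 1.02 (adjusted p = 0.00775) and BA was below E6 by -0.92 (adjusted p = 0.0177). SESN2, the stress-inducible sestrin, was at 37.8, 61.3 and 68 CPM at t0, 25.7, 48.1 and 53.1 at 24 h and 86.7, 68.8 and 63.7 at 48 h in BA, 63.2, 50.3 and 45.6 in E6 and 29.6, 42 and 34.2 in E8. BA 48 h was the highest group at 48 h within every replicate, and above E8 by 1.1 with the block (adjusted p = 0.0146). GDF15 was at 1.21, 2.56 and 2.77 CPM at t0, 0.447, 11.2 and 9.62 CPM at 48 h in BA and at 0.513, 14.9 and 13.8 CPM in E8. Replicate 1 was below t0 replicate 1 in both, and it was not called in these comparisons with or without the block.

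Of the feedback genes, MDM2, PPM1D and CCNG1 were lower in replicates 2 and 3 in all 5 groups. MDM2 was at 69.5, 39 and 39 CPM at t0, 61.1, 32.4 and 37.3 at 24 h and 71, 36.8 and 42.7 at 48 h in BA, 53.1, 28.3 and 28.1 in E6 and 48.5, 27.4 and 27.8 in E8. Within every replicate E6 and E8 were below t0, and BA was above both. With the block, BA was higher than E6 by 0.48 (adjusted p = 0.00248) and than E8 by 0.55 (adjusted p = 0.00134), and E6 and E8 were lower than t0 by -0.39 (adjusted p = 0.00513) and -0.47 (adjusted p = 0.00418).

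PPM1D was at 33.1, 26.9 and 26.5 CPM at t0, 34.6, 23.4 and 24.2 at 24 h and 31, 21.9 and 22.1 at 48 h in BA, 31.3, 15.1 and 15.7 in E6 and 28.5, 13.9 and 13 in E8. E8 was the lowest within every replicate. It was lower than t0 by -0.69 in E8 (adjusted p = 0.00548) and -0.5 in E6 (adjusted p = 0.0135) with the block. CCNG1 was at 367, 209.7 and 204 CPM at t0, 354.1, 181.7 and 167.5 at 24 h and 471, 202.8 and 283.5 at 48 h in BA, 522.1, 282.5 and 296.9 in E6 and 384.3, 249.3 and 224.2 in E8. E6 was the highest within every replicate, above t0 by 0.54 with the block (adjusted p = 0.00686).

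The remaining members are given by range. Over all 35 libraries AEN ran from 91.5 to 197.3 CPM, PMAIP1 from 57.1 to 251.3, ZMAT3 from 6.17 to 19.99, PLK3 from 4.92 to 11.4 and SPATA18 from 0.659 to 3.97 CPM. With the block, the log2 level of ZMAT3 was higher by 1 in BA at 48 h than at t0 (adjusted p = 0.0429) and that of PLK3 differed by -0.56 between E6 at 48 h and t0 (adjusted p = 0.0331). PMAIP1 at 48 h was at 170.3, 63.7 and 57.1 CPM in E6 and 138.7, 173 and 166.7 CPM in E8. The order of the media was opposite in replicate 1 and in the other 2 replicates.

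The direction of change from t0 itself differed between replicate 1 and the mean of replicates 2 and 3, with both over 0.2 on the log2(CPM + 1) scale, for 6 of 31 members in BA 48 h, 4 in E6 48 h and 7 in E8 48 h. For BA 24 h against t0 it differed for 0, for BA 48 h against BA 24 h for 7, and against E6 48 h for 5. The share over all genes was not counted, so these counts cannot be read as particular to the members.

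Paralogues did not share 1 pattern. Over the time course GADD45B stood 2.95 above E6 from 6 h on, and GADD45A rose within BA by 1.21 after 24 h, where GADD45B differed by -0.1 (adjusted p = 0.865). MDM2 was higher in BA than in E6 and E8 at 48 h with the block, and MDM4, at 43.9, 31.3 and 32.3 CPM in BA 48 h and 34.7, 28.9 and 32.2 in E6 48 h, was not. With the block, SESN1 was called against t0 at 48 h in all 3 media and in no comparison between media, and SESN2 was called for BA against E8. TNFRSF10A and TNFRSF10B were both lower in BA over the time course. None of these differences between paralogues was tested as such.

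Of 19 p53 regulators listed, 17 were tested; 1 was higher and 1 lower in BA than in E6 over time, the inhibitor PPP1R13L (0.58, adjusted p = 0.00203) and the damage-response scaffold TP53BP1 (-0.38, adjusted p = 0.0239), and the same 2 were called against E8. Of 23 further p53 targets, 4 were higher and 3 lower than in E6, and 5 higher and 5 lower than in E8. The largest were PRDM1, a transcriptional repressor, at 2.53 to 94.7 CPM in BA and 0.167 to 1.91 in E6, and TRIM22, an antiviral ubiquitin ligase, at 0.319 to 19 CPM in BA and 14.2 to 25 in E6.

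For comparison by role, the 16 proliferation genes held 4 higher and 1 lower in BA than in E6, the 12 genes of the integrated stress response 3 higher and 2 lower, and the 10 BMP and TGF-beta response genes 9 higher and 0 lower, with median log2 differences of -0.04, -0.22 and 2.02. SMAD6, an inhibitory SMAD of that last list, was at 73.5 to 454 CPM in BA and 3.18 to 7.62 in E6. PLK2, a polo-like kinase and further p53 target, was at 9.87 to 25.2 CPM in BA and 2.76 to 6.97 in E6, and ASNS, the asparagine synthetase of the integrated stress response, at 151 to 344 and 106 to 175 CPM. These lists were read beside the same background of 30.9%.

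In the authors' deposited table of their own comparisons, whose header does not name the reference group, BTG2 had log2 fold changes of 3.16 for BA 48 h (adjusted p = 9.54e-24), 2.2 for E6 48 h (adjusted p = 0.00117) and 1.61 for E8 48 h (adjusted p = 0.0408). In the authors' deposited table GADD45A had 1.27 (adjusted p = 6.82e-05) and GADD45B 2.83 (adjusted p = 0.000279) for BA 48 h. TP53I3 had -1.14 for BA 48 h (adjusted p = 0.022) and -1.16 for E8 48 h (adjusted p = 0.0273), and CDKN1A 1.84 for BA 48 h (adjusted p = 0.0764), in the authors' deposited table.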

How the data were processed

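The 31 members, their roles and the other gene lists were chosen with earlier results of these data known. Poly(A) RNA (TruSeq mRNA libraries, per the labels' protocols) was counted per gene by the authors; the deposited values are whole read counts per gene symbol of GENCODE release 23, per the file headers and name. The submitters' processing notes name featureCounts, DESeq2 and hg38, with no versions, and the strand setting is not given in the sources used here. The authors also deposited a table of log2 fold changes with p-values from their own comparisons, whose reference group its header does not name.

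Counts were tested with edgeR 4.0.16 (quasi-likelihood, TMM, filterByExpr) under R 4.3.3, with Benjamini-Hochberg adjustment over all genes tested: 21554 in the 5 groups of 3 replicates (15 libraries) and 16971 in the time course (24 libraries, medium and time as factors) and 17897 where 6 to 24 h was set against 30 to 48 h. All 31 members passed these filters. Calls needed an adjusted p under 0.05. CPM are counts scaled to library size with TMM factors. Coordinates and exon lengths are those of GENCODE release 29 (GRCh38). Total counts per library, 11793453 to 37191969, set the counting precision. Alternatives were a replicate block, DESeq2 1.42.0, RLE factors, no filter, 2 groups only, a spline of time, all libraries, and leaving out each library or time; replicates 2 and 3 alone, and leaving out E6 18 h and E8 24 h, were chosen after seeing the data.

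The replicate number was used as a block because the deviations of same-numbered libraries from their group means correlated in all 30 pairs (r = 0.586 to 0.884). Numbers 2 and 3 also correlated with each other (0.559 to 0.738). The 2 library sets by themselves give positive correlations of both kinds, so these values do not establish pairing. Replicates 2 and 3 of a group differed by more than counting noise. Replicate values are given for members called in the first 5 group comparisons, with or without the block, and for the 8 with the largest range of log2(CPM + 1) over the time course. CDKN1A, BAX, GDF15 and PMAIP1 were added after their values were seen; of other lists, genes with the largest changes are named. One regulator on these lists is not reported here. The fits were tested on simulated data. For BA 48 h against t0, run on 21554 genes, 2% of 2-fold and 94% of 4-fold changes were recovered. On 16971 genes it was 74% and 100% for BA against E6 over time. For late against early times in BA, also on 16971 genes, it was 18% and 99.5%, and 10% and 3.4% of the calls were false. The simulated counts had the same dispersion for every gene and held no library sets or time trend. These shares may therefore not hold for the fits of the real counts.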

Additional observations from a re-analysis of the deposited data

Results flagged for a closer look

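In each group of 4 libraries (1 medium at 6 to 24 h or at 30 to 48 h), a library was looked at again when its gap to the nearest other as a share of the range exceeded Dixon's 95% critical value. This held for 11 of 186 groups, and chance alone would give about 1 in 20. Of these, 4 were in E6 18 h and 1 in E8 24 h, the libraries that stood between the 2 sets.

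In E6 18 h, BAX was at 85.4 CPM (others 31.5 to 38.7), TRIAP1 at 62.2 (32.6 to 34.9), RRM2B at 52.8 (89.6 to 94.8) and GDF15 at 0.569 (0.966 to 1.03). In E8 24 h, TNFRSF10B was at 129 CPM (142 to 145). In E6, GADD45B was at 1.56 CPM at 30 h (0.9 to 1), and at 48 h FDXR was at 11.2 CPM (6.72 to 7.42) and SPATA18 at 3.63 (1.51 to 1.67). In BA, BTG2 was at 7.86 CPM at 24 h (4.37 to 4.96), FAS at 0.823 at 30 h (0.303 to 0.383), and SESN2 at 86.7 at 48 h (18 to 29.2).

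The change between 6 to 24 h and 30 to 48 h differed between media by the edgeR test of the difference itself for 3 members. For GADD45A it was 1.86 more in BA than in E6 (adjusted p = 0.0033) and 1.58 more than in E8 (adjusted p = 0.00986). For CYFIP2 the differences were -1.39 (adjusted p = 0.0176) and -1.65 (adjusted p = 0.00604), and for PMAIP1 the difference from E6 was -1 (adjusted p = 0.0138).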

How the results depend on the processing

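The numbers of members called in the replicated groups depended on how the 2 library sets were handled. With the replicate block they were 1 for BA 24 h against t0, 7 for BA 48 h against BA 24 h, 5 against E6 48 h, 5 against E8 48 h, 10 for BA 48 h, 13 for E6 48 h and 10 for E8 48 h against t0, and the block left E6 48 h against E8 48 h at 0. With replicates 2 and 3 only they were 13, 22, 17, 17, 21, 24 and 23 in the same order, and 15 for E6 48 h against E8 48 h. DESeq2 gave 3 for BA 48 h against BA 24 h, 1 against E6 48 h, 1 against E8 48 h, 6 for BA 48 h, 4 for E6 48 h and 3 for E8 48 h against t0. Of all 21554 genes it called 672, 1603, 1299, 2514, 2434 and 1310 in that order. With the libraries of the 2 groups only, BA 48 h against t0 gave 1 and E6 48 h against t0 gave 0, and without a filter the latter gave 0. Over all genes these fits called 351, 3 and 234. Leaving out 1 library gave 0 to 3 for BA 48 h, 0 to 2 for E6 48 h and 0 to 2 for E8 48 h against t0. Over all genes tested the calls were 376 to 1443, 48 to 1575 and 0 to 624. The cause was not tested. With all libraries of the 3 media, BA against E6 over time gave 5, BA against E8 7 and 6 to 24 h against 30 to 48 h in BA 3. Leaving out 1 time, the last gave 5 to 9, where 1834 to 3533 of all genes tested were called. RLE factors left all 14 counts within 1.5 times.

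Directions turned in 3 cases: MDM2 in E6 48 h against t0 ran from -0.79 to 0.03 when 1 library was left out, with 0.03 (adjusted p = 0.988) without t0 replicate 1, and with all libraries CDKN1A was 1.13 (adjusted p = 0.521) and GDF15 0.77 (adjusted p = 0.869) between the early and late times in BA. At 1 library per medium and time, the spread is that between times. Members at a few CPM, such as FAS and GDF15, rest on few reads, and the 3-replicate fit recovered few 2-fold changes in simulation.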
